A study of Sus scrofa with 7 samples.

Results

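Serotonin is made by neurons whose cell bodies lie mainly in the raphe nuclei of the brainstem and whose axons reach the hypothalamus, where the transmitter acts on feeding, sleep, body temperature and hormone release. TPH2, tryptophan hydroxylase 2, carries out the rate-limiting step of serotonin synthesis in neurons, and SLC6A4 is the transporter that takes released serotonin back into the cell. The zinc finger factors GATA2 and GATA3 are known from mouse and chick for their part in forming serotonin neurons, and in mouse GATA2 and the basic helix-loop-helix factor TAL1 direct midbrain precursors towards the GABA neuron fate. PAX5, a paired box factor, acts with PAX2 at the boundary of midbrain and hindbrain in the embryo and is also the factor that fixes B cell identity. GATA2 and TAL1 have further roles in blood stem cells and endothelium.

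These 6 genes were followed in hypothalamus RNA from piglets whose distal ileum was infused with antibiotics. They were chosen by the deposited group values themselves, the FPKM in antibiotic and in control piglets, so their differences between the groups are given as a description and not as a test. Each of the 6 symbols matched exactly 1 of the 16991 features in the authors' deposited table, and no second row of any of them had to be set aside. All 6 were among the 13352 features that the authors had tested. Piglets of both groups came from a Duroc x Landrace x Large White cross and were fitted with a T-cannula in the distal ileum; their age was 45 postnatal days. The 4 control libraries are from piglets infused with 10 mL of saline, and the 3 antibiotic libraries from piglets infused with the same volume of saline carrying 3 antibiotics, whose daily doses in mg per kg were 150 of ampicillin, 4 of gentamicin and 30 of metronidazole. The labels give the tissue only as hypothalamus, and no source used here says how far the dissected block reached. Of 17 matched hypothalamus markers, 11 reached 1 FPKM in controls and 9 under antibiotics. AVP, the vasopressin gene, stood at 210.6 and 181 FPKM and OXT, the oxytocin gene, at 310.1 and 96.8 by the authors' table, while the regional factors SIM1 and SIX6 were under 1 FPKM in both groups and FEZF1 stood at 3.19 and 0.413.

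The table holds 1 FPKM per gene and group (a fragment count divided by transcript length and by the mapped total), so the value of a single piglet, the spread between piglets and the depth of each library are unknown. Every FPKM, log2 fold, p and q below is the authors' deposited value. A gene is said to have risen or fallen where the deposited q, a p-value adjusted for the number of features, was under 0.05. How the 7 libraries entered the authors' test is not described in the sources used here, so replicate error reaches the text only as far as their q holds it. In bulk tissue, more cells of one type and more RNA per cell cannot be told apart.

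All 6 genes had the higher value in the antibiotic group. The pair that defines a working serotonin neuron, TPH2 and SLC6A4, went from almost nothing to an ordinary level, while the 4 transcription factors differed by between 1.71-fold and 2.80-fold. Of the 6, 5 rose, none fell and 1, GATA2, did not pass. For comparison, 41.1% of all tested features passed in either direction, 19.0% as rises and 22.2% as falls. Because the genes were picked on this contrast, nothing is read from their count against that background.

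TPH2 stood at 0.329 FPKM in controls and 18.0 under antibiotics by the authors' deposited table (log2 of 5.78, 54.9-fold, q = 0.000336). In the control group, 99.4% of the tested features had a higher value than TPH2, and under antibiotics 27.8% did. Over all 16991 features, tested or not, the control share was 83.6%. The gene thus lay near the floor of the tested features in one group and above the tested median of 7.91 FPKM in the other. The deposited locus of TPH2 is chromosome 5, 38620464 to 38716998, under the Ensembl gene ENSSSCG00000021122, and no other row of the table overlaps it.

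SLC6A4 stood at 0.0965 FPKM in controls and 13.1 under antibiotics by the authors' table (log2 of 7.09, 136-fold, q = 0.000336). Of the tested features 17 had a lower control value, and 89.5% of all 16991 features had a higher one. Among the 13339 tested features above 0 in both groups, SLC6A4 ranked 1 and TPH2 ranked 3 by deposited fold. The size of these folds rests on very low control values. With 1 FPKM added to both groups, the log2 was 3.69 for SLC6A4 and 3.84 for TPH2, which reversed their order. The locus of SLC6A4 is chromosome 12, 48106435 to 48148808 (ENSSSCG00000017797), with no overlapping row.

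By ratio, the enzyme and the transporter were closer under antibiotics than in controls. FPKM is scaled to transcript length, so levels can be set side by side between genes. The ratio of TPH2 to SLC6A4 was 3.41 in controls and 1.38 under antibiotics, from the authors' group values. No error can be attached to either ratio, and the control one rests on a pair of values under 1 FPKM.

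**Figure D1:**
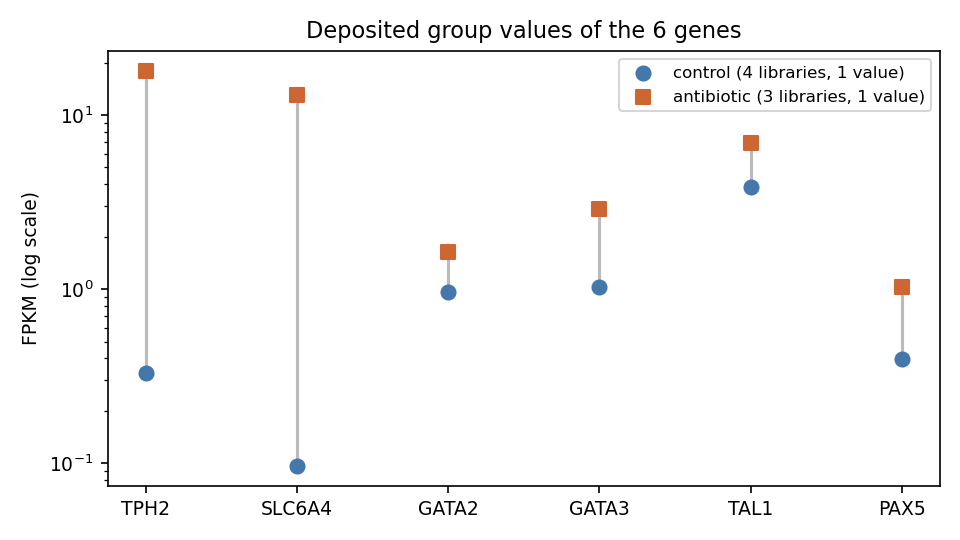
Deposited FPKM (log axis) of the 6 genes in the control group (circles) and the antibiotic group (squares), with 1 value per group and no error bars because no value per library was available. TPH2 and SLC6A4 move from 0.329 and 0.0965 to 18.0 and 13.1, while the 4 transcription factors differ by less than 3-fold.

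GATA3 had the largest fold of the 4 transcription factors. It went from 1.03 to 2.89 FPKM in the authors' deposited table (log2 of 1.49, 2.80-fold, q = 0.000336). Its close relative GATA2 stood at 0.958 FPKM in controls and 1.64 under antibiotics (log2 of 0.77, q = 0.0905), which did not pass. The ratio of GATA3 to GATA2 was 1.08 in controls and 1.76 under antibiotics. Both lie low among the tested features, since 93.8% of these exceeded GATA3 in controls and 94.5% exceeded GATA2. Over all 16991 features the shares were 74.5% and 75.2%. GATA3 lies at chromosome 10, 69581079 to 69611373 (ENSSSCG00000011125). GATA2 lies at chromosome 13, 79606187 to 79643203 (ENSSSCG00000011618), an interval that the table also gives to a second row, ENSSSCG00000023123. That row had 3.38 FPKM in controls and 6.55 under antibiotics (q = 0.0550), so reads at this locus may have been split between the rows in a way the deposited values do not show. Of the remaining GATA family, GATA5 stood at 2.63 and 1.98 FPKM (q = 0.323) by the authors' values, and GATA4 and GATA6 were not tested.

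TAL1 was the most abundant of the 6 genes in controls. Its value was 3.85 FPKM there and 6.88 under antibiotics by the authors' table (log2 of 0.84, 1.79-fold, q = 0.00114), so it passed the q threshold but not the 2-fold change that the authors' own significant call also asks for. PAX5 was the least abundant factor, at 0.395 FPKM in controls and 1.03 under antibiotics (log2 of 1.39, 2.62-fold, q = 0.00114). The ratio of TAL1 to GATA2 was 4.01 in controls and 4.19 under antibiotics, and that of TAL1 to GATA3 was 3.73 and 2.38. TAL1 lies at chromosome 6, 151830154 to 151846185 (ENSSSCG00000026460), and PAX5 at chromosome 1, 265431798 to 265628551 (ENSSSCG00000005345). Neither shares its interval with another row. The submitters' processing notes name the pig build susScr3 without tying these coordinates to it.

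The order of the 6 genes differed between the groups. In the control group it ran TAL1, GATA3, GATA2, PAX5, TPH2, SLC6A4, so that every transcription factor stood above the enzyme and the transporter. In the antibiotic group it ran TPH2, SLC6A4, TAL1, GATA3, GATA2, PAX5, and the 4 factors kept their order among themselves. TAL1 exceeded TPH2 by 11.7-fold in controls, and TPH2 exceeded TAL1 by 2.62-fold under antibiotics. GATA3 and GATA2 are neighbours in both orders, and whether they or any other neighbours differ beyond the spread between piglets cannot be told from 1 value a group.

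Under the authors' own rule, a q under 0.05 with at least a 2-fold change, SLC6A4, TPH2, GATA3 and PAX5 were called significant and TAL1 and GATA2 were not. That rule called 7.37% of the tested features as rises. SLC6A4, TPH2, GATA3 and PAX5 also stand in the authors' shorter sheet of 1389 features. Of the 6 genes, 4 (TPH2, SLC6A4, PAX5 and GATA2) were under 1 FPKM in controls and at 1 or more under antibiotics. There were 489 tested features of that kind, and 172 of them (35.2%) rose.

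**Figure D2:**
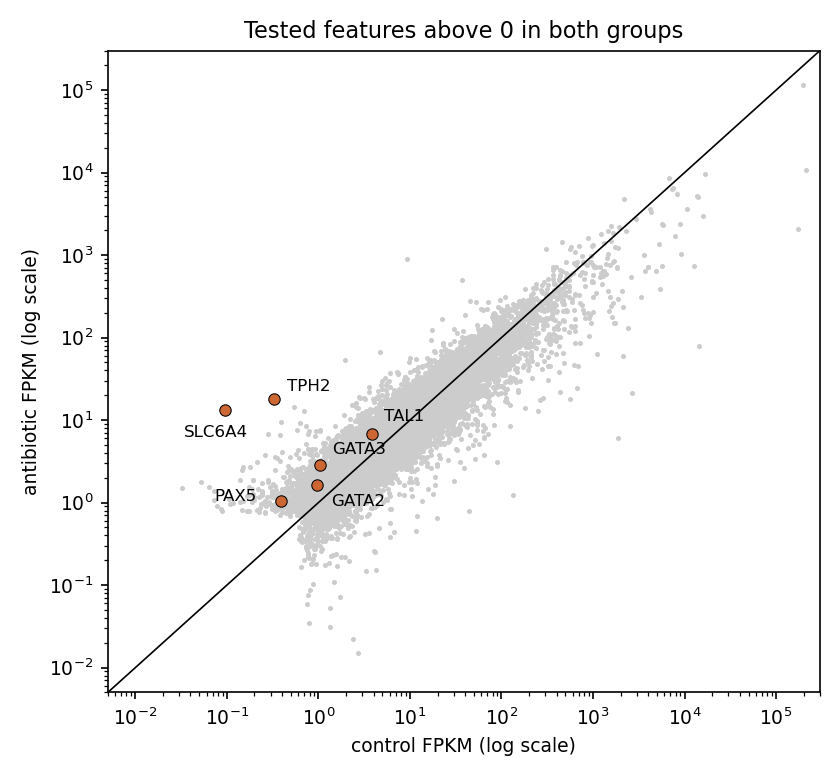
Control against antibiotic FPKM (both log axes) of the 13339 tested features above 0 in both groups (grey), with the 6 genes in orange and the line of equal values. SLC6A4 and TPH2 stand apart from the cloud at the upper left, whereas TAL1, GATA3, GATA2 and PAX5 lie within it, above the line.

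A step from under 0.5 FPKM in controls to 5 or more under antibiotics was made by 9 tested features. Of these 5 were above 0 in controls: SLC6A4, TPH2, the dopamine transporter gene SLC6A3, the neuronal filament gene PRPH and a row that joins SLA-DOB2 with neighbouring names. The bounds enclose the values by which TPH2 and SLC6A4 were chosen, so nothing is read from how few features met them. By distance on log2(FPKM + 0.1) over the 2 group values, the named features nearest to SLC6A4 were TPH2 (1.21), PRPH (1.35) and SLC6A3 (1.39). Those nearest to TPH2 were SLC6A3 (0.93), SLC6A4 (1.21) and PRPH (1.41). With 2 group values per gene, such nearness says only that the levels were alike in each group. SLC6A3 went from 0.390 to 9.57 FPKM and PRPH from 0.284 to 6.78 in the authors' table (both q = 0.000336).

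No other tested gene of the serotonin pathway had a log2 above 2.78. Of 13 matched genes for serotonin synthesis, transport and breakdown besides these, 12 were tested. Of those 3 rose (25%, against 19.0% of all tested features), none fell and 9 did not pass. Their median log2 was 0.19, against -0.03 over all tested features. DDC, the decarboxylase that turns 5-hydroxytryptophan into serotonin, rose from 2.75 to 18.9 FPKM (log2 of 2.78, q = 0.000336) in the authors' table, in a row that overlaps ENSSSCG00000015630. SPR, which makes the tetrahydrobiopterin cofactor of TPH2, rose from 27.8 to 54.6 FPKM (log2 of 0.97, q = 0.000336). SLC29A4, a low-affinity monoamine carrier of the plasma membrane, rose from 5.33 to 11.2 FPKM (q = 0.0241). The 3 that passed were thus the second enzyme of the pathway, a cofactor enzyme and a second carrier. Their share was near that of all tested features, so nothing is read from the count.

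The vesicular carrier and the degrading enzymes were among those that did not pass. SLC18A2, which loads serotonin into vesicles, stood at 6.71 FPKM in controls and 8.19 under antibiotics (q = 0.811) by the authors' values, in a row that overlaps PDZD8. MAOA and MAOB, the monoamine oxidases, stood at 77.4 and 33.2 FPKM in controls and 64.5 and 36.6 under antibiotics (q = 0.196 and 0.504). These genes are also used by dopamine, noradrenaline or histamine neurons and by glia. The part of any single cell type in their values, or in the rise of DDC, was not tested. Genes of cofactor synthesis and recycling other than SPR did not pass, with PTS at 24.5 and 19.3 FPKM (q = 0.515), PCBD1 at 65.8 and 67.7 (q = 0.870), QDPR at 55.7 and 65.8 (q = 0.240) and GCHFR at 9.88 and 15.7 (q = 0.209) by the authors' values. SLC22A3 stood at 0.887 and 0.925 FPKM (q = 0.892) and ALDH2 at 25.4 and 25.9 (q = 0.926). The rows of GCHFR and ALDH2 each overlap others. TPH1, the tryptophan hydroxylase of gut and pineal gland, was not tested and stood at 0.158 and 0.382 FPKM.

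None of the 6 tested serotonin receptor genes rose or fell, and their median log2 was 0.37. The nearest to the threshold was HTR1A, the receptor by which serotonin neurons restrain their own firing, at 0.657 FPKM in controls and 1.41 under antibiotics (log2 of 1.10, q = 0.0503). HTR1D stood at 0.740 and 1.35 FPKM (q = 0.119) and HTR1B, an autoreceptor of serotonin terminals, at 1.02 and 1.37 (q = 0.364) by the authors' values. HTR2C, the most abundant of them and a receptor on the target neurons that curbs feeding, stood at 6.74 and 5.85 FPKM (q = 0.482). HTR2A stood at 1.37 and 1.29 FPKM (q = 0.831) and HTR7 at 1.55 and 1.92 (q = 0.337). HTR1F, HTR2B, HTR3A, HTR3B, HTR4 and HTR6 had a row and were not tested, and none of them exceeded 0.603 FPKM in either group of the authors' table. The deposited annotation places 41 rows besides SLC6A4 in the KEGG serotonergic synapse pathway, several of the receptors above and MAOB among them. Of these 27 were tested, 5 rose (18.5%, against 19.0% of all tested features) and 4 fell, and the median log2 was 0.22. Those that rose included PLCB3, ITPR3, ADCY5 and PRKACA, which act in second messenger signalling. The falls included those of GNAI1 and PLA2G4A.

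Other transcription factors of serotonin neurons did not pass either. Of 7 tested factors none rose or fell, and the median log2 was 0.23. LMX1B, which keeps serotonin neurons in their fate, stood at 0.174 FPKM in controls and 0.794 under antibiotics (log2 of 2.19, q = 0.162) in the authors' table. EN1, which is needed to maintain monoamine neurons of midbrain and rostral hindbrain, stood at 0.0524 and 1.76 FPKM (log2 of 5.07, q = 0.279). NKX2-2, which acts early in the ventral hindbrain and also marks oligodendrocyte precursors, was the most abundant at 14.5 and 16.9 FPKM (q = 0.473). NKX6-1 stood at 3.90 and 5.05 FPKM (q = 0.756), INSM1 at 2.46 and 2.69 (q = 0.741), OTX2 at 9.68 and 11.4 (q = 0.381) and POU3F2 at 5.81 and 5.11 (q = 0.549). FOXA1, FOXA2, EN2 and MEIS2 had a row but were not tested, and FEV and GCH1 are not analysed here. The 7 markers named for a serotonin neuron were TPH2, SLC6A4, FEV, SLC18A2, DDC, HTR1A and LMX1B. TPH2 and SLC6A4 were picked on this contrast, so their rises say nothing further. Of the others DDC rose, SLC18A2, HTR1A and LMX1B did not pass, and FEV is not analysed here. Among all tested features 19.0% rose. Of the 6 genes, TPH2 and SLC6A4 are on that list of defining markers and the 4 factors are not.

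**Figure D3:**
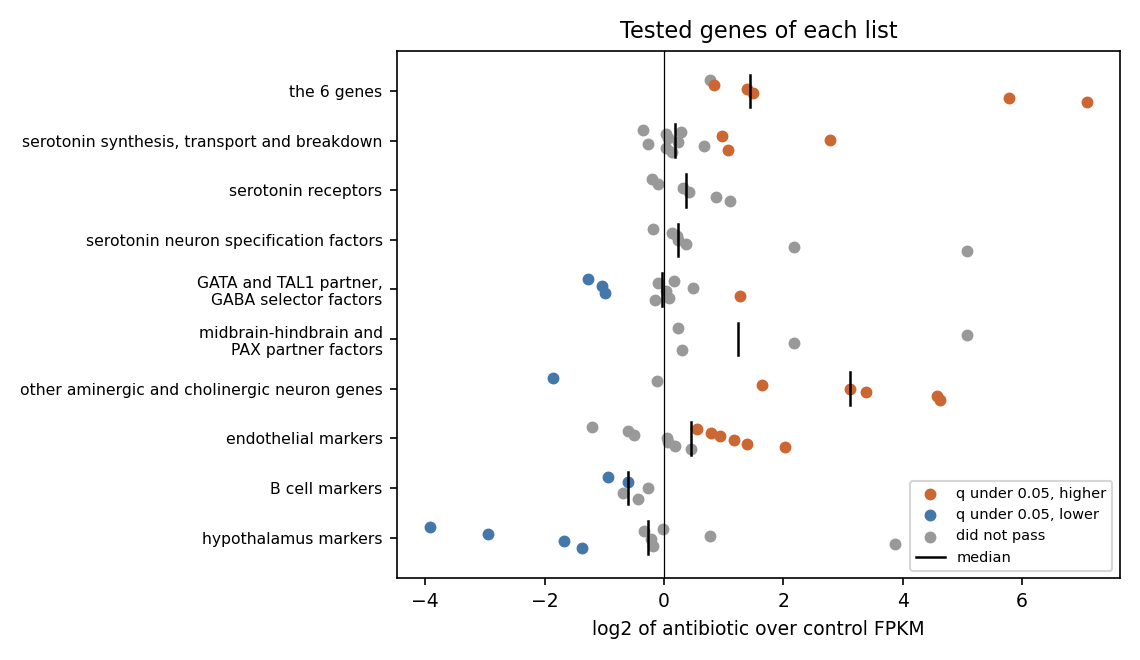
Deposited log2 of antibiotic over control FPKM for the tested genes of 9 lists, with the 6 genes in the top row. Orange points passed q under 0.05 upwards, blue points downwards, grey points did not pass, and the black bars are medians. TPH2 and SLC6A4 lie at 5.78 and 7.09, beyond every other point shown, and the receptor and serotonin factor lists hold only grey points.

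A further list held partners of GATA factors and TAL1 together with GABA neuron selector factors. Of its 10 tested genes 1 rose, 3 fell and 6 did not pass, a share called near the 41.1% of all tested features. Their median log2 was -0.03, and 0.05 after upper quartile scaling. LMO1, a LIM-only protein of the kind that bridges TAL1 and GATA factors, rose from 16.1 to 38.9 FPKM (q = 0.000336) by the authors' values, while LMO4 fell from 61.0 to 25.2 (q = 0.000336). ZFPM2, a cofactor that binds GATA zinc fingers, fell from 4.99 to 2.43 FPKM (q = 0.0211). LHX1 fell from 2.74 to 1.39 FPKM (q = 0.00352). LDB1, the scaffold of the TAL1 and GATA complex, stood at 28.9 and 29.7 FPKM (q = 0.865), LMO2 at 9.03 and 8.17 (q = 0.569) and TCF3, an E protein that pairs with TAL1, at 3.42 and 4.76 (q = 0.0587). SOX14, which marks GATA-dependent GABA neurons in mouse, stood at 2.10 and 2.22 FPKM (q = 0.849) by the authors' values.

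Most genes that mark position along the brainstem were under 1 FPKM in both groups, and several had a higher value in the antibiotic group with no test. Of 10 matched genes of the midbrain-hindbrain boundary, 9 had the higher value in the antibiotic group, 3 were listed at 0 in controls, 4 were tested and none passed. Beside EN1 and LMX1B, the authors' table gave EN2 at 0.00651 and 0.584 FPKM, WNT1 at 0.0368 and 0.334, and PAX2 and LMX1A at 0 in controls and 0.135 and 0.282 under antibiotics, none of them tested. The EN2 row overlaps INSIG1. Of 7 matched genes of the posterior hindbrain list, such as HOXA3, HOXB3 and PHOX2A, 4 were listed at 0 in controls and 1 under antibiotics. A list named for other amine and acetylcholine neurons was drawn up with earlier results of these data known. Of 7 tested 5 rose (SLC6A3, PRPH, CHAT, SLC5A7 and ALDH1A1) and 1, HDC, fell. Among all tested features 19.0% rose and 22.2% fell. Given how the list was chosen, nothing is read from its share. NR4A2 stood at 7.92 and 7.30 FPKM (q = 0.688) and did not pass. SLC6A2 and DBH, which mark noradrenaline neurons, were listed at 0 in controls and at 0.0328 and 0.0592 FPKM under antibiotics, and were not tested. Of 10 tested hypothalamus markers 4 fell (PMCH, OXT, SST and FEZF1) and none rose, where 22.2% of all tested features fell, and their median log2 was -0.27. AGRP, at 0.211 and 3.09 FPKM (q = 0.302), and POMC, at 2.55 and 4.34 (q = 0.0938), had the higher value under antibiotics and did not pass. The summed FPKM of the 17 matched markers was 1034 in controls and 404 under antibiotics, and PMCH, OXT and SST made up most of that difference. The part of these shifts in the rise of TPH2 and SLC6A4 was not tested.

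Markers of blood, vessel and B cells, in which GATA2, TAL1 and PAX5 also act, moved in different directions. Among all tested features 19.0% rose and 22.2% fell. Of 13 tested endothelial markers 6 rose, none fell and 7 did not pass. Their median log2 was 0.46, and their summed FPKM was 200.1 against 264. VWF, the clotting factor of endothelium, rose from 4.06 to 16.6 FPKM and CLDN5, a tight junction protein of brain vessels, from 54.9 to 106 (both q = 0.000336) by the authors' values. EGFL7, ESAM, SOX17 and FLT1 were the other rises, while KDR, in a row with an overlap, stood at 7.73 and 8.13 FPKM (q = 0.757). EMCN, FLI1 and TIE1 were lower under antibiotics without passing. They stood at 14.6 and 6.31, 47.5 and 31.5, and 20.9 and 14.8 FPKM, and the TIE1 row has an overlap. The other 10 endothelial markers had the higher value under antibiotics. TAL1 had a log2 of 0.84, inside the range of -1.21 to 2.03 of these markers, and the part of vessel cells in its value was not tested. Of 7 tested erythroid, megakaryocyte and mast cell markers none rose and 2, the globin genes HBB and HBA, fell, from 5400 to 386 and from 5677 to 729 FPKM (both q = 0.000336). KIT stood at 16.8 and 15.2 FPKM (q = 0.546). Of 5 tested B cell markers none rose and 2, EBF1 and BLNK, fell, and all 5 had a log2 below 0, whereas that of PAX5 was 1.39. MS4A1 and CD79B, which define B cells, were not tested and stayed at or under 0.136 FPKM in either group. Of 10 matched pituitary markers 2 were tested and neither rose, and 1, GNRHR, fell. Of 5 matched pineal genes 2 were tested. AANAT, which makes the precursor of melatonin from serotonin, rose from 1.29 to 4.67 FPKM (q = 0.0164) by the authors' values. OTX2, at 9.68 and 11.4 FPKM (q = 0.381), did not pass.

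The features beside the 6 genes on the chromosome were read from the same table, in which 19.0% of all tested features rose and 22.2% fell. Within 500 kb of TPH2 the authors' table had 9 other tested features, of which 5 fell and none rose, and their log2 ran from -1.37 to -0.15. The nearest, TBC1D15, ended 11.3 kb from TPH2 and fell from 24.4 to 12.5 FPKM (q = 0.000336). Around SLC6A4 there were 13, of which 2 rose and 2 fell, with log2 values of -1.24 to 1.14. The nearest of these, ENSSSCG00000017796, began 0.949 kb away and stood at 25.8 and 19.0 FPKM (q = 0.0934).

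Around GATA2, 8 of 17 tested features rose and 1 fell, so the smaller difference in GATA2 lay inside the range of its surroundings (-1.41 to 1.83). There was 1 rise among 4 features near GATA3 and no call among 4 near TAL1, while 3 of 6 near PAX5 fell and none rose. Over the 6 loci 53 neighbours were tested, 11 rose and 11 fell, near those shares of all tested features, and their median log2 was -0.15.

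**Figure D4:**
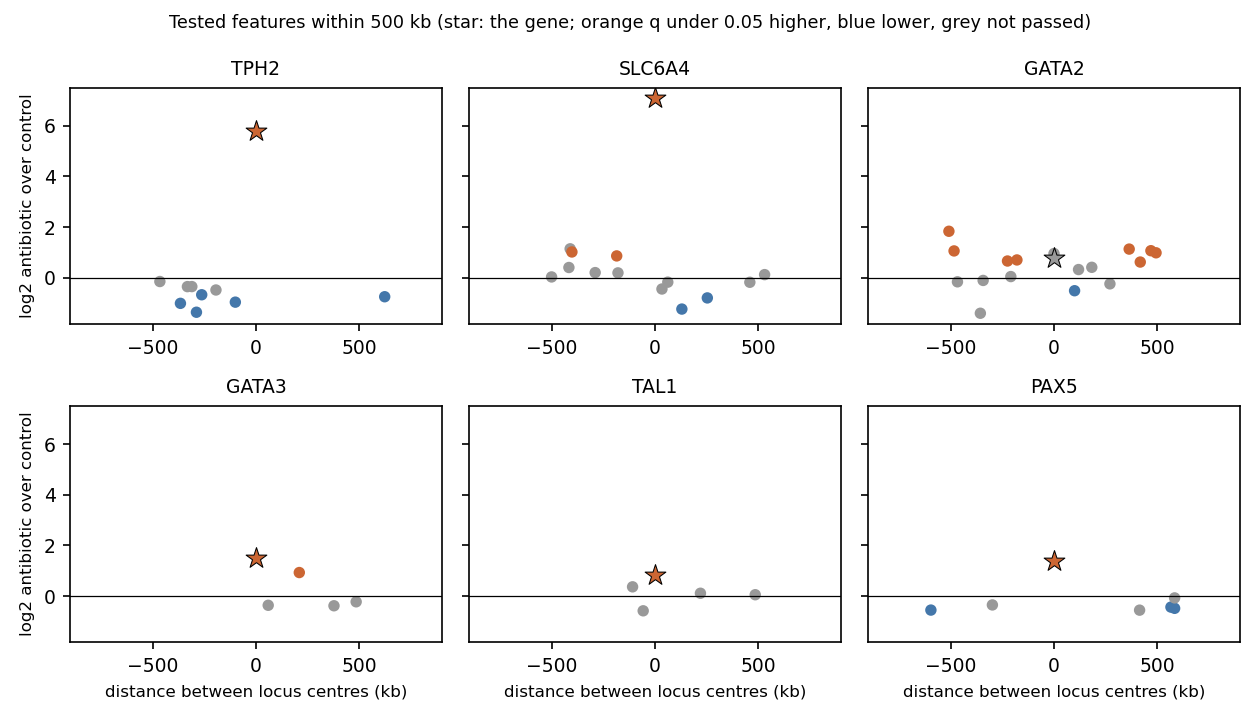
Deposited log2 of antibiotic over control FPKM of tested features within 500 kb of each gene, against the distance in kb between locus centres, with the gene itself as a star. Orange marks a q under 0.05 upwards, blue downwards and grey neither. No neighbour of TPH2 or SLC6A4 exceeds a log2 of 1.14, and most of the neighbours of GATA2 that passed are orange.

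Locus length and level were also set beside the 6 genes, because both move with the calls in this table. Among tested loci of 50 to 100 kb, the class of TPH2 (96.5 kb), 15.5% rose and the median log2 was -0.16. Among loci of over 100 kb, the class of PAX5 (197 kb), 10.1% rose and the median was -0.15. Loci of 20 to 50 kb, which include SLC6A4, GATA2 and GATA3, had 20.2% rises and a median of -0.06, and those under 20 kb, which include TAL1, had 23.8% and 0.12. By mean FPKM, 19.8% of features at 5 to 10, the class of TPH2, SLC6A4 and TAL1, rose. At 1 to 5 FPKM, where GATA2 and GATA3 lie, 15.7% rose, and under 1 FPKM, where PAX5 lies, 8.72% did. The part of locus length and level in the values of the 6 genes was not tested.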

How the data were processed

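RNA-seq of hypothalamus was used, with 4 control and 3 antibiotic libraries grouped by sample title. Per the labels' protocols, RNA was taken with Trizol from flash-frozen tissue and libraries were made with an Illumina TruSeq kit from 1 ug of total RNA. Bowtie 0.12.2 and the genomes susScr3 and mm8 appear in the submitters' processing notes. No source used here states the annotation, the strand setting or how libraries were combined.

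Per the file headers, each of the 3 deposited sheets holds 1 FPKM per gene and group. The deposited log2 fold is antibiotic over control with no pseudocount, and the p-value and q-value are those of the authors' test. The smallest deposited p-value, 5e-05, is shared by 2081 tested features, among them TPH2, SLC6A4 and GATA3. After 6 blank rows were left out, 16991 features remained. No column held a single library, so no model over libraries could be fitted and no test of the groups was computed here.

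The 6 genes and all lists were chosen with earlier results of these data known. There were 16 lists with 212 symbols besides the 6 genes, and 155 were matched to a row, 11 of them only through the Ensembl ID. The KEGG rows come from the deposited annotation and were added after the table was read. Genes named are the 6, those of the serotonin lists, list members past q 0.05, and the most abundant or defining others, some of them chosen after their values were seen. Alternatives rescaled the groups (upper quartile, trimmed mean, quantile), added 0.1 or 1 FPKM, set minimum levels and used a q of 0.01. The scaling code was tested on simulated data. Python 3.11.15, pandas 2.3.3 and numpy 2.4.6 were used. Some list members are counted but not reported here by name. No sequences are printed and promoter motifs were not searched.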

Additional observations from a re-analysis of the deposited data

How the results depend on the processing

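All 6 genes kept the higher value in antibiotic under each of the 5 rescalings and pseudocounts. The log2 ran from 3.69 to 7.16 for SLC6A4, 3.84 to 5.86 for TPH2, 0.94 to 1.57 for GATA3, 0.70 to 0.92 for TAL1, 0.54 to 1.47 for PAX5 and 0.43 to 0.85 for GATA2. The lowest values came from adding 1 FPKM, which by its construction pulls low control values up. Of the 6 genes, 5 passed at q under 0.05, 5 at 0.01, 4 under the authors' 2-fold rule (TAL1 was lost), 5 with at least 1 FPKM in a group and 3 with at least 5 (TPH2, SLC6A4 and TAL1). TPH2, SLC6A4, PAX5 and GATA2 met the minimum of 1 FPKM only through the antibiotic group. The same held for TPH2, SLC6A4 and TAL1 at 5, so the level minimums are no check on these calls. The median log2 of the list of GATA and TAL1 partners and GABA neuron selectors turned from -0.03 to 0.051 after upper quartile scaling. The cause was not tested. For serotonin synthesis the rises went from 3 to 2 at a q of 0.01, and the receptor and serotonin factor lists had no call under any alternative run. At that q the endothelial rises went from 6 to 3, the B cell falls from 2 to 0 and the PAX family falls from 2 to 1. The KEGG rises went from 5 to 4 and the KEGG falls from 4 to 2. The rises of other amine and acetylcholine neuron genes went from 5 to 4 (CHAT was lost). Falls among GATA and TAL1 partners and GABA neuron selectors went from 3 to 2, and the single pituitary and pineal calls were lost. With at least 1 FPKM in a group the midbrain-hindbrain median was 0.29. No rescaling moved the median log2 of all tested features by more than 0.1. No paired analysis was possible because the deposited table has no value per library, and leaving out single libraries could not be run for the same reason. Rows do not repeat any of the 6 symbols, so a second row could not be tried.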

Other observations

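Among all tested features 19.0% rose and 22.2% fell. Of 10 tested relatives of SLC6A4 in the SLC6 transporter family, 6 rose, SLC6A3 among them, and 4 did not pass in the authors' deposited table. Their median log2 was 0.86. SLC6A15 was lower without passing, at 5.65 and 4.41 FPKM (q = 0.173). SLC6A17, a vesicular carrier of neutral amino acids, rose from 11.2 to 40.2 FPKM (q = 0.000336). SLC6A7, the proline transporter of brain, and SLC6A8, the creatine transporter, rose to 5.07 and 36.8 FPKM (both q = 0.000891). SLC6A12, a betaine and GABA transporter, rose to 2.84 FPKM (q = 0.00229). Of 4 matched relatives of PAX5, 2 were tested and both fell, while PAX1 and PAX2 were listed at 0 in controls and were not tested. PAX6 fell from 6.50 to 4.50 FPKM (q = 0.0304) and PAX9, in a row that overlaps SLC25A21, fell from 1.62 to 0.357 FPKM (q = 0.000336) in that table.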
